A study of Mus musculus with 6 samples.

Results

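The 10 genes described here encode regulators of mitochondrial biogenesis. They are the PGC-1 coactivators Ppargc1a, Ppargc1b and Pprc1, the DNA-binding factors Nrf1, Gabpa and Yy1, the estrogen-related receptors Esrra and Esrrg, and the sirtuins Sirt1 and Sirt3. They were picked by gene name, with earlier results of these data known, and all 10 were found among the 53110 genes of the table. All 10 were also among the 16266 genes tested, which had a mean of at least 10 normalized counts over the samples. A normalized count is a read count divided by the size factor of its sample.

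The genes were measured by RNA-seq in primary neural stem cells (NSCs) of the mouse cortex, cultured in adhesion on Matrigel with bFGF and EGF in an incubator at 21% O2. Wild-type (WT) NSCs were compared with Setd5+/- NSCs, in which 1 copy of Setd5 had been mutated with CRISPR-Cas9. Setd5 encodes a SET-domain protein of chromatin-modifying complexes. The question was how lower Setd5 dosage changes the transcription of mitochondrial genes in high oxygen. The headers name 1 mutant clone and no WT clone, so clone, sequencing lane and genotype cannot be told apart.

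The labels list 3 samples per genotype, but these behaved as parts of 1 library. The headers give the same index and lane to all samples of a genotype, WT on one lane and Setd5+/- on another, and the variance of a gene's reads over the parts stayed at about the same multiple of their mean at every depth. It was 1.88 times the mean in WT genes with 10 to under 100 reads and 2 times in those with at least 10000, and 1.88 and 1.81 times in Setd5+/-, so no spread that grows with the level was seen. The size of 1 read was set so that the most frequent low value was 2 reads. That values of 2 reads outnumber values of 1 read (12503 and 3129) follows from this setting and says nothing about the libraries. After scaling of the noise by 1.93, its mean multiple within the genotypes, which sets the chi-square per degree of freedom within a genotype near 1, the value between genotypes was 33 to 33.2. Each genotype was therefore counted as n = 1 library, and no SD over cultures can be given. A log2 fold change is that of the mean normalized counts, Setd5+/- over WT, and the range in parentheses after it is its 95% counting interval. A p-value is from limma, a linear model of log2(normalized count + 1) over all tested genes with Benjamini-Hochberg adjustment, and it compares the reads of 2 libraries and not the genotypes. Each WT part held 9995980 to 10004948 reads and each Setd5+/- part 7143309 to 7146147. Setd5 itself, on chromosome 6, was at 2498, 2749 and 2780 normalized counts in WT and at 2151, 1990 and 2055 in Setd5+/-, a log2 fold change of -0.37 (-0.44 to -0.31). All 7 neural stem cell markers were detected, with a summed level of 74401 to 74726 in WT and 59073 to 59851 in Setd5+/-. Fabp7 went from 36015 to 11490 on average, the highest of the 7 in WT but below Slc1a3 and Vim in Setd5+/-. Nes and Sox2 were lower too, while Vim (9095 to 13822), Notch1 (2576 to 7859) and Pax6 (402 to 530) were higher. Slc1a3 was at 20983 and 21117, and the median log2 fold change of the 7 was 0.01. Of the 3 microglial markers Cx3cr1 was at 0 in every sample, Aif1 had a mean of 0.827 in WT and 4.37 in Setd5+/-, and Csf1r was at 76.1 to 117 in WT and 45.3 to 63.1 in Setd5+/-. The 5 mesenchymal markers together reached 5.79 to 14.1 in WT and 2.38 to 14.3 in Setd5+/-. The 4 astrocyte markers summed to 788 to 808 in WT and 1237 to 1397 in Setd5+/-, the 5 of the oligodendrocyte lineage to 11626 to 11818 and 6848 to 7192, and the 5 neuronal markers to 10321 to 10693 and 12632 to 12751. Map2 made up most of the neuronal sum (9983 and 12445 on average), while Dcx went from 248 to 26.2, Rbfox3 from 7.46 to 0 and Tubb3 from 62.9 to 48.4. The part of these markers in the values below was not tested, and fewer cells of a type cannot be told apart from less RNA per cell.

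Mitochondrial biogenesis is run from the nucleus, which encodes nearly all mitochondrial proteins. PGC-1 coactivators do not bind DNA themselves. They dock on transcription factors such as nuclear respiratory factor 1 (NRF1), the GABP complex and the estrogen-related receptors (ERRs), which bind the promoters of respiratory chain, Krebs cycle and fatty acid oxidation genes and of the factors that copy and transcribe mitochondrial DNA. The deacetylase SIRT1 acts on PGC-1α protein in the nucleus, and SIRT3 deacetylates enzymes inside the mitochondrion. Much of this control works on the proteins, which RNA levels do not show.

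Of the 10 regulators, 6 were lower in Setd5+/- NSCs and none was higher by limma at an adjusted p of 0.05, nor at an unadjusted p of 0.05. The 6 were Ppargc1a, Pprc1, Esrra, Nrf1, Gabpa and Yy1. Over all tested genes, 30.9% were called lower and 30.3% higher, so calls were common between these libraries in both directions. Esrra, Pprc1 and Ppargc1a were also at least 1.5-fold lower, and no regulator was that much higher. That limit was passed by 15.8% of all tested genes downwards and by 19.9% upwards. All WT values lay above all Setd5+/- values for the same 6 regulators, as they did for 32.9% of tested genes, and no regulator had all Setd5+/- values above, as 32.4% of tested genes did. The median log2 fold change of the 10 regulators was -0.23, beside -0.02 over all tested genes.

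**Figure D1:**
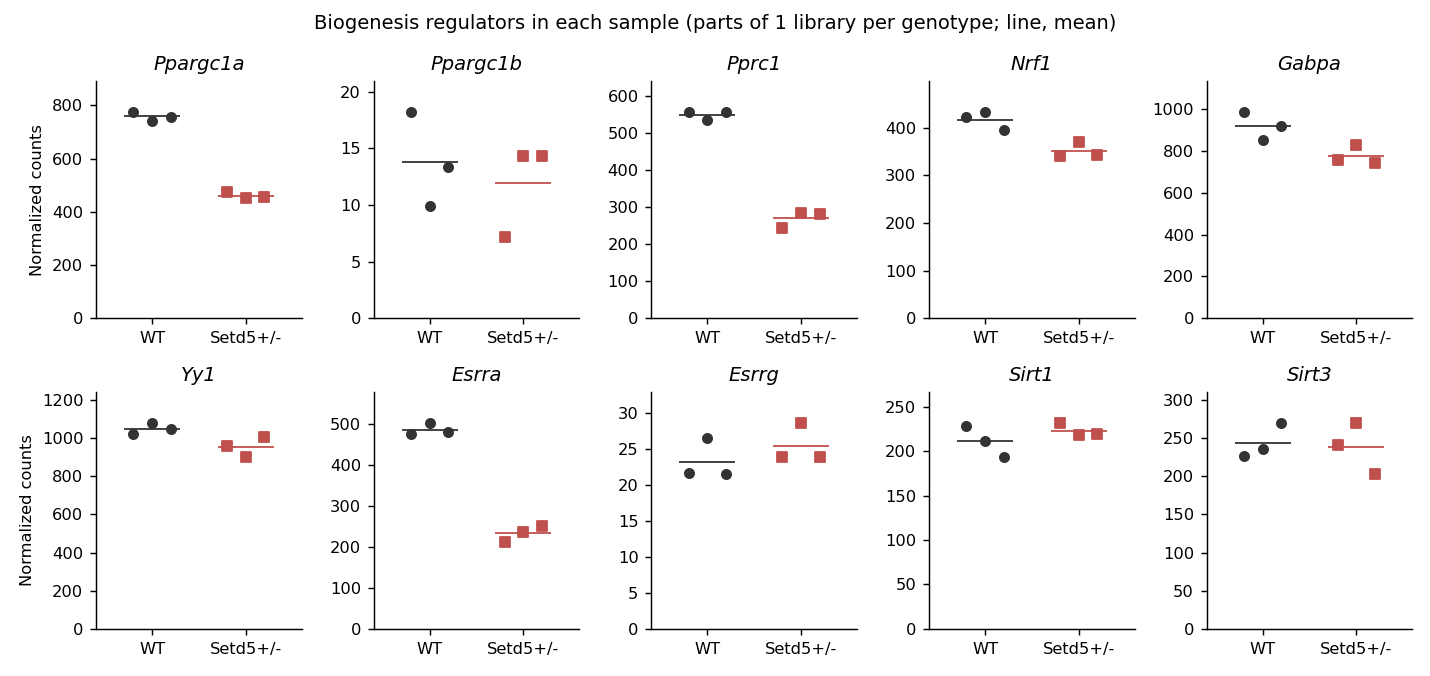
Normalized counts of the 10 regulators in each sample, WT as circles and Setd5+/- as squares, with a line at the mean of the 3 parts of each library. The points of Ppargc1a, Pprc1 and Esrra are far apart, those of Nrf1, Gabpa and Yy1 are close without overlap, and those of Ppargc1b, Esrrg, Sirt1 and Sirt3 overlap.

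Ppargc1a (ENSMUSG00000029167, GRCm38 chr5:51454250-51567726) encodes PGC-1α, the best known inducer of mitochondrial biogenesis. It was at 775, 742 and 757 normalized counts in WT and at 473, 450 and 454 in Setd5+/-. Every Setd5+/- value lay well below every WT value, and the spread within a library was small. Its log2 fold change was -0.72 (-0.86 to -0.59), with a limma adjusted p of 8.2e-11. Its level fell by 39.4%, and 11.3% of tested genes had a lower fold change.

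Pprc1 (ENSMUSG00000055491, chr19:46044886-46072915) encodes PRC, the family member known for its link to cell growth. It was at 556, 536 and 557 normalized counts in WT and at 243, 283 and 282 in Setd5+/-. Again the libraries did not overlap, and the distance was larger than for Ppargc1a. The log2 fold change was -1.03 (-1.20 to -0.85), with a limma adjusted p of 1.4e-11, and 6.02% of tested genes had a lower one. Pprc1 fell more than Ppargc1a, by -0.30 on the log2 scale (counting interval -0.53 to -0.08).

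Ppargc1b (ENSMUSG00000033871, chr18:61298136-61400431), the gene of PGC-1β, was close to the filter on low values. It was at 18.2, 9.93 and 13.3 normalized counts in WT and at 7.15, 14.3 and 14.3 in Setd5+/-, from 80 reads in all. The values overlapped and varied as widely within a library as between them. Its log2 fold change of -0.21 had an interval of -1.12 to 0.70 (limma adjusted p = 0.68), which holds both no change and the fall of Pprc1, so a difference was not detectable at this depth. Its sign turned without WT part 1 or Setd5+/- part 1, with fold changes of 0.04 and 0.05.

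Set per length, on the scale of normalized counts per kb of exon, the summed level of the 3 coactivators was 206 in WT and 116 in Setd5+/-. The length counts every exon base of all annotated transcripts of a gene, and which transcripts these cells make was not tested. Ppargc1a made up 55.9% of the sum in WT and 60.3% in Setd5+/-, Pprc1 42.5% and 37.1%, and Ppargc1b 1.68% and 2.58%. On these lengths, the family was carried by Ppargc1a and Pprc1 in both libraries.

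Esrra (ENSMUSG00000024955, chr19:6910977-6921813) encodes ERRα, an orphan nuclear receptor that works with PGC-1α on genes of oxidative metabolism. It was at 476, 503 and 480 normalized counts in WT and at 212, 237 and 250 in Setd5+/-. Its log2 fold change, the lowest of the 10 regulators, was -1.06 (-1.25 to -0.87; limma adjusted p = 2.4e-11). Its level fell by 52.1%, and 5.55% of tested genes had a lower fold change. Its fall was larger than that of Ppargc1a, by -0.34 on the log2 scale (-0.57 to -0.10), and could not be told from that of Pprc1, with a difference of -0.03 (-0.29 to 0.22). Esrra and Pprc1 lie on the same chromosome, where the median log2 fold change of 496 tested genes was -0.08.

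Esrrg (ENSMUSG00000026610, chr1:187608791-188214885) encodes ERRγ, a receptor of the same family known from highly oxidative tissues. It was low, at 21.6, 26.5 and 21.5 normalized counts in WT and at 23.8, 28.6 and 23.8 in Setd5+/-. The libraries overlapped. Its log2 fold change of 0.13 had an interval of -0.52 to 0.78 (limma adjusted p = 0.73). The 1044 tested genes of chromosome 1 had a median log2 fold change of 0.54, so Esrrg lay below the median of its chromosome, and the part of this shift in its value was not tested. The fold change of Esrra was lower than that of Esrrg by -1.19 (-1.87 to -0.51). Per kb of exon Esrra gave 96.7% of the summed level of both in WT and 92.8% in Setd5+/-, while that sum went from 115 to 57.2.

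Esrrb, the third receptor of the family and a gene of pluripotent cells that was on a list of PGC-1 docking partners, also fell. It was at 23.2, 31.4 and 19.9 normalized counts in WT and at 4.77, 7.15 and 4.76 in Setd5+/-. Its log2 fold change was -2.16 (-3.29 to -1.03), from 104 reads, with a limma adjusted p of 0.00015.

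**Figure D2:**
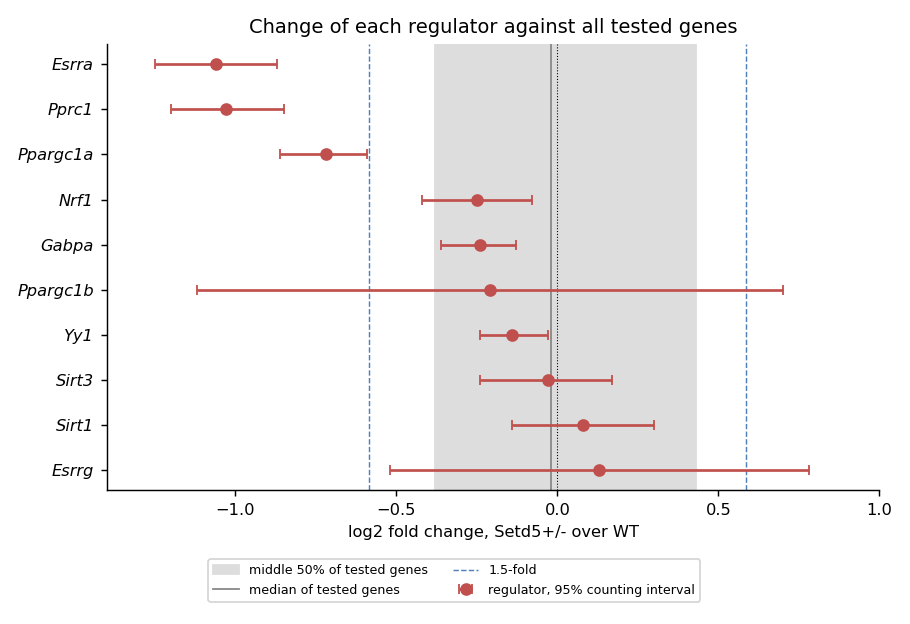
log2 fold change of each regulator, Setd5+/- over WT, with its 95% counting interval. The grey band holds the middle 50% of tested genes, from -0.38 to 0.43, and the dashed lines mark 1.5-fold. Esrra, Pprc1 and Ppargc1a lie below the band and past the 1.5-fold line, and the other regulators lie inside the band.

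The DNA-binding factors fell less than Ppargc1a, Pprc1 and Esrra. Nrf1 (ENSMUSG00000058440, chr6:30047988-30153458), the gene of nuclear respiratory factor 1, was at 423, 433 and 396 normalized counts in WT and at 341, 369 and 342 in Setd5+/-. Its libraries did not overlap. The log2 fold change was -0.25 (-0.42 to -0.08), with a limma adjusted p of 0.0078, and 33.1% of tested genes had a lower one.

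Gabpa (ENSMUSG00000008976, chr16:84834925-84863779) encodes the DNA-binding ETS subunit of GABP, also called nuclear respiratory factor 2. It was at 988, 853 and 922 normalized counts in WT and at 759, 831 and 743 in Setd5+/-, with the lowest WT part just above the highest Setd5+/- part. The resulting log2 fold change was -0.24 (-0.36 to -0.13), with a limma adjusted p of 0.00099. Nrf1 and Gabpa differed by -0.01 in fold change (-0.21 to 0.19).

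GABP needs a β subunit to activate transcription. Gabpb1 had a log2 fold change of -0.23 (-0.43 to -0.02), from a mean of 279 to 238 normalized counts, and its call (limma adjusted p = 0.045) was lost in 8 of 14 alternatives (adjusted p 0.02 to 0.19). Gabpb2 rose from 470 to 584, a log2 fold change of 0.31 (0.17 to 0.45) with a limma adjusted p of 0.002. Gabpa and Gabpb2 thus went opposite ways, a difference in log2 fold change of -0.56 (-0.74 to -0.38), while Gabpa and Gabpb1 differed by -0.02 (-0.25 to 0.22).

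Yy1 (ENSMUSG00000021264, chr12:108792973-108820148), a zinc finger factor that binds many housekeeping promoters and can recruit PGC-1α, had the smallest of the called falls. It was at 1023, 1081 and 1046 normalized counts in WT and at 961, 900 and 1008 in Setd5+/-, and the highest Setd5+/- part came close to the lowest WT part. The log2 fold change was -0.14 (-0.24 to -0.03). Gabpa and Nrf1 differed from Yy1 by -0.11 (-0.26 to 0.04) and -0.12 (-0.31 to 0.08), so these falls could not be told apart. Yy1 had a limma adjusted p of 0.024. The call was lost in 5 of 14 alternatives, with an adjusted p of 0.12 when the scaling was centred on genes outside chromosome 1, 0.058 without the filter, 0.1 without WT part 2, 0.053 without WT part 3 and 0.14 without Setd5+/- part 2 (range over all alternatives 0.0048 to 0.14).

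The promoters of these genes were searched for the letters that the factors read, on both strands: GCGCATG for NRF1, CCGGAAG for GABP, AAGGTCA for ERR and AAGATGG for YY1. RefSeq windows of 300 bases (250 before to 50 after a start, GRCm38.p6) were given for 9 of the 10 genes, Ppargc1b being the other. The letters were found in 3 of the 9, and no window held those of ERR. The 3 windows are shown because they set a gene that fell strongly (Esrra, minus strand, chr19:6921759-6922058), a gene that fell slightly (Gabpa, plus strand, chr16:84834874-84835173) and a gene that was not called (Sirt3, minus strand, chr7:140882260-140882559) side by side. They are written 5′ to 3′ along the gene, with the matches in capitals.
Esrra: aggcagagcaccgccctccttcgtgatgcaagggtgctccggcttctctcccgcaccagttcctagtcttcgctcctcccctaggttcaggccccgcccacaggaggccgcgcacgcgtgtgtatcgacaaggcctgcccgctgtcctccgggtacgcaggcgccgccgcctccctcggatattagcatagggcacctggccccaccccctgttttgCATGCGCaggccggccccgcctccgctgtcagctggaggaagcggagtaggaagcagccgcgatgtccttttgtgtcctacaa
Gabpa: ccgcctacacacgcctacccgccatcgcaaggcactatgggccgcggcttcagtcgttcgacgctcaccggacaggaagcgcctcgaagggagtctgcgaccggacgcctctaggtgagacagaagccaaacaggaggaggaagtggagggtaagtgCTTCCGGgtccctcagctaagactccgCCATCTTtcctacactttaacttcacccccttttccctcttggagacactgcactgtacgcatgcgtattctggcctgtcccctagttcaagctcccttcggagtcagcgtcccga
Sirt3: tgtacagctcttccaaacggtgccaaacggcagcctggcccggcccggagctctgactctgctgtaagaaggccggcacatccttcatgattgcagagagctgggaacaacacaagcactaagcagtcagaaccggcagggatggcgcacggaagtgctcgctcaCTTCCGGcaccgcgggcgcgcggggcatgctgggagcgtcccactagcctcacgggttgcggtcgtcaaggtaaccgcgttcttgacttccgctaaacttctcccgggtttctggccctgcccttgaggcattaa

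In Esrra the capitals are the reverse complement of the NRF1 letters, from base -33 to -27 counted from the start. In Gabpa they are those of GABP, from -93 to -87, and of YY1, from -66 to -60, and in Sirt3 those of GABP, from -85 to -79. All 4 matches are in the reverse complement. Of all 32851 windows, 3.91% held the NRF1 letters, 8.86% those of GABP, 4.72% those of ERR and 6.34% those of YY1. Counted per gene, over 27025 genes of which some have several windows, the shares were 4.41%, 9.93%, 5.38% and 7.28%. These genes include many that were not tested here, so the shares are no matched background for the target lists below. Over the 34 genes of the target lists used below, 28 had a window, and the letters stood in 7 of them for NRF1, 9 for GABP, 4 for ERR and 1 for YY1. With the GABP letters were Tfam, Polg, Polg2, Polrmt, Ssbp1 and Twnk, which are 6 of the 8 genes for the upkeep and transcription of mitochondrial DNA. Among the 10 respiratory targets with a window 3 held them, and among the 10 metabolic ones 0. Of the 6 genes, Polrmt had a log2 fold change of 0.36 and Polg2 one of 0.01. The other 4 were called lower, as were 30.9% of all tested genes. A match is a run of letters and not a bound site, and these factors also read other letters. Genes with and without the letters were not compared over all tested genes, because only 64.1% of those (10434) had a window.

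Sirt1 and Sirt3 showed no detectable difference. Sirt1 (ENSMUSG00000020063, chr10:63319005-63381704) encodes an NAD-dependent deacetylase whose substrates include PGC-1α. It was at 228, 211 and 193 normalized counts in WT and at 232, 218 and 219 in Setd5+/-, with overlap. The log2 fold change was 0.08 (-0.14 to 0.30), with a limma adjusted p of 0.5.

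Sirt3 (ENSMUSG00000025486, chr7:140863666-140882309) encodes the main deacetylase of the mitochondrial matrix and is itself known as a target of PGC-1α and ERRα. It was at 226, 235 and 270 normalized counts in WT and at 241, 270 and 203 in Setd5+/-. The parts of the Setd5+/- library spanned those of WT on both sides. The log2 fold change was -0.03 (-0.24 to 0.17), with a limma adjusted p of 0.78, and its sign turned without WT part 3 (0.05), without Setd5+/- part 3 (0.07) and with the scaling centred on genes outside chromosome 1 (0.01). Both intervals exclude a 1.5-fold change in either direction between these 2 libraries.

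**Figure D3:**
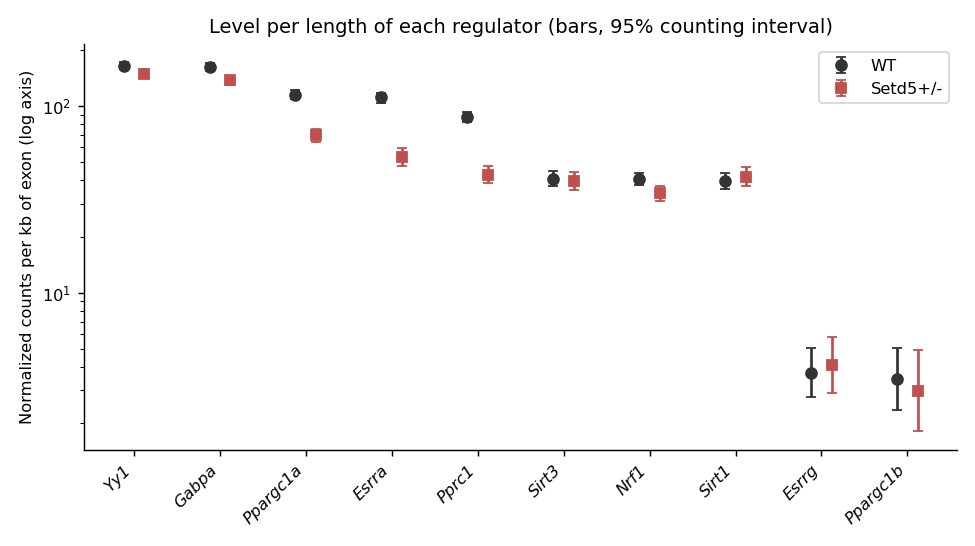
Level of each regulator in normalized counts per kb of exon on a log axis, WT as circles and Setd5+/- as squares, with 95% counting intervals. Yy1 and Gabpa stand highest, Esrrg and Ppargc1b lowest, and the middle of the order changes between the libraries.

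Compared per kb of exon, the WT order was Yy1 (164), Gabpa (162), Ppargc1a (115), Esrra (111), Pprc1 (87.4), Sirt3 (40.8), Nrf1 (40.6), Sirt1 (39.5), Esrrg (3.74) and Ppargc1b (3.46). Neighbours that could not be told apart by counting error were Yy1 and Gabpa, Ppargc1a and Esrra, the run of Sirt3, Nrf1 and Sirt1, and Esrrg and Ppargc1b. Counting error does not cover the exon lengths, so the order between genes also depends on the annotated transcripts. In Setd5+/- the levels per kb were 149 for Yy1, 137 for Gabpa, 69.6 for Ppargc1a, 53.1 for Esrra, 42.9 for Pprc1, 41.9 for Sirt1, 39.8 for Sirt3, 34.1 for Nrf1, 4.09 for Esrrg and 2.99 for Ppargc1b. There Ppargc1a stood above Esrra, while Pprc1 could no longer be told from Sirt1. Among the levels of all tested genes, 70.1% were below Ppargc1a in WT and 55.2% in Setd5+/-, 69.1% and 46.9% were below Esrra, and 62.4% and 40.4% below Pprc1.

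Some regulators share exon bases with a gene on the opposite strand, and whether the counting used strand is not given in the sources used here. Pprc1 shares 2.82% of its exon bases with Ldb1 and Esrra 1.66% with Trmt112. Ldb1 had a log2 fold change of -0.19 (-0.28 to -0.10) and Trmt112 one of 0.12 (-0.15 to 0.39), so Pprc1 and Esrra lay below these neighbours by -0.84 (-1.03 to -0.64) and -1.18 (-1.51 to -0.85). Trmt112 itself has copies elsewhere, with 54% of its 50-base stretches found in other genes, and its value is uncertain. Gabpa shares 6.98% with Atp5j, a subunit of the ATP synthase, which fell from 1603 to 851 normalized counts (-0.91, with an interval of -1.01 to -0.81). Gabpa lay above Atp5j by 0.67 (0.52 to 0.82). Sirt3 shares 7% with Ric8a and 5.73% with Psmd13, whose log2 fold changes were -0.16 and -0.34. It lay above Psmd13 by 0.31 (0.04 to 0.57) and could not be told from Ric8a, with a difference of 0.13 (-0.12 to 0.38). How far these neighbours enter the counts of Gabpa and Sirt3 was not tested. In all, 17 pairs of fold changes were compared by their counting intervals, with no p.

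Around the regulators, genes of related roles were read from lists, with calls adjusted over all tested genes, of which 30.9% were called lower and 30.3% higher. Of 9 nuclear receptors on which PGC-1 can dock, 7 were tested, 1 rose and 4 fell (median log2 fold change -0.29). Rxra, the common partner of many of them, rose from 139 to 320 normalized counts, 2.3-fold higher (log2 interval 0.98 to 1.43, limma adjusted p = 1.4e-09), and Esrrb fell most. Of 15 coregulators and partners 6 rose and 6 fell, near the shares over all tested genes (median 0.05). The largest fall was that of Prmt1, an arginine methyltransferase known to act on PGC-1α, with -0.60 (-0.77 to -0.42), and the largest rise that of the coactivator Ncoa1 with 0.42 (0.31 to 0.53). Nrip1, the corepressor RIP140, had a log2 fold change of 0.10 (-0.08 to 0.28).

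Of 24 upstream kinases and inducers 23 were tested, of which 4 rose and 9 fell (median -0.20). Tfeb, a master gene of lysosome formation that can induce Ppargc1a, fell most, from 123 to 57.2 normalized counts (-1.11, with an interval of -1.49 to -0.73, limma adjusted p = 1.2e-05). Foxo1 had the largest rise with 0.51 (0.23 to 0.80, limma adjusted p = 0.0054), and lost its call without Setd5+/- part 3 (adjusted p 0.0013 to 0.055 over the alternatives). The catalytic subunits of AMPK, which phosphorylates PGC-1α, went different ways, with 0.24 (0.07 to 0.41) for Prkaa1 and -0.22 (-0.43 to -0.01) for Prkaa2. The call of Prkaa1 (limma adjusted p = 0.03) was lost in 7 of 14 alternatives (0.00071 to 0.22), and Prkaa2 (0.06) gained one in 3 (0.027 to 0.21).

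Of the 13 other sirtuins and genes of NAD metabolism 11 were tested, of which 2 rose and 2 fell (median -0.04). Sirt4, also mitochondrial, rose from 184 to 284 normalized counts (0.62, with an interval of 0.41 to 0.84, limma adjusted p = 1.1e-05). Nampt, the rate-limiting enzyme of NAD salvage, rose by 0.41 (0.23 to 0.59) on the log2 scale (limma adjusted p = 0.00025). Naprt fell most, by 1.39 on the log2 scale (-2.33 to -0.45) but from only 105 reads (limma adjusted p = 0.0097, with 0.09 without WT part 2 and a range of 0.0042 to 0.09 over the alternatives).

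**Figure D4:**
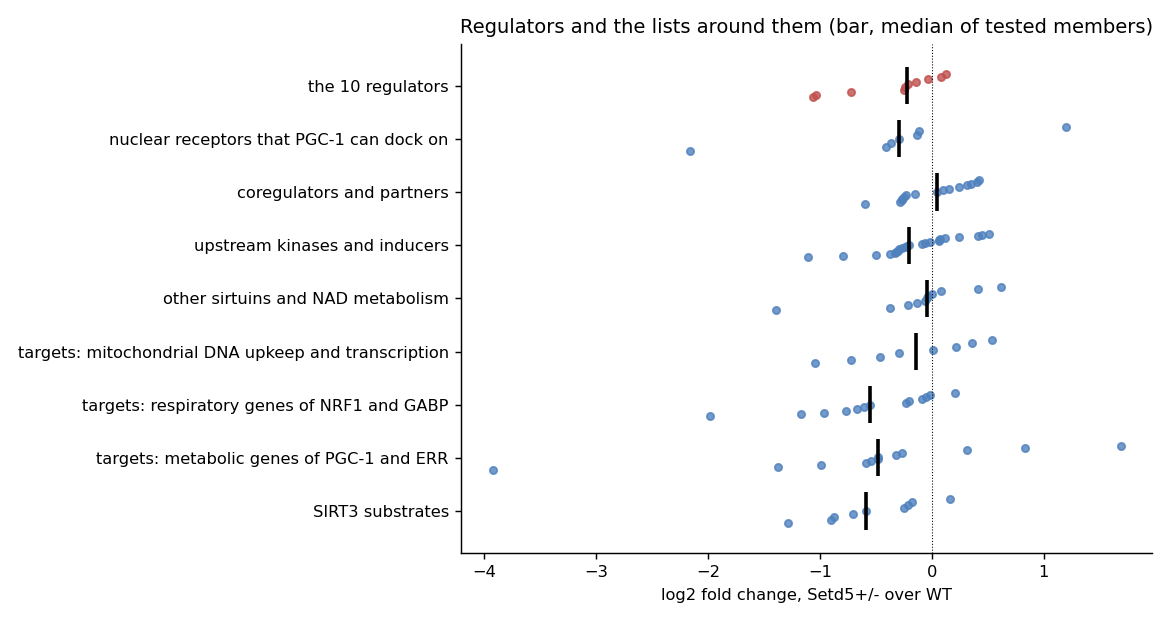
log2 fold change, Setd5+/- over WT, of the 10 regulators and of the tested genes of each list, 1 point per gene, with a bar at the median. The medians of the respiratory targets (-0.55), the metabolic targets (-0.48) and the SIRT3 substrates (-0.59) lie furthest below 0, and that of the coregulators is 0.05.

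Of the 34 genes listed as known targets of the regulators 33 were tested, and 21 were called lower and 4 higher (median -0.46). Over all tested genes 30.9% were called lower and 30.3% higher, and these shares also stand beside the counts of the lists below. The target lists were chosen with earlier results of these data known. The list splits by role. Of the 8 genes for the upkeep and transcription of mitochondrial DNA, 4 fell and 1 rose (median -0.14, and -0.29 without Tfb2m, its gene on chromosome 1). Tfam, which packages mitochondrial DNA and is a classical NRF1 and GABP target, fell from 355 to 259 normalized counts, a log2 fold change of -0.46 (-0.65 to -0.27) with a limma adjusted p of 0.00013. Polg, the catalytic subunit of the mitochondrial DNA polymerase, fell from 3980 to 1931 (-1.04, with an interval of -1.11 to -0.98, limma adjusted p = 2.1e-21), and shares 6.42% of its 50-base stretches with the neighbouring Fanci. Polrmt, the mitochondrial RNA polymerase, rose from 345 to 442 (0.36, with an interval of 0.20 to 0.52, limma adjusted p = 0.00057). The transcription factor genes Tfb1m and Tfb2m had log2 fold changes of 0.22 (-0.20 to 0.64) and 0.54 (0.03 to 1.04) and were not called, and Tfb2m shares 31.9% of its 50-base stretches with another gene.

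Of the 13 respiratory genes controlled by NRF1 and GABP, 9 fell and none rose by limma (median -0.55), and at an unadjusted p of 0.05 none rose either. Cycs, the gene of cytochrome c, had the lowest fold change with -1.98 (-2.98 to -0.97, limma adjusted p = 0.0011), but it was counted at a mean of only 28.2 and 7.15 normalized counts. In Cycs 26.1% of the 50-base stretches recur in other genes, so its value is uncertain. Cox17, a copper chaperone for cytochrome oxidase, was the highest with 0.21 (-0.02 to 0.43) and was not called.

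Of the 12 tested metabolic genes controlled by PGC-1 and ERR, 8 fell and 3 rose (median -0.48). Ucp2, an uncoupling protein of the inner membrane, had the largest fall, from 84.2 to 5.56 normalized counts (-3.92, with an interval of -5.00 to -2.85, limma adjusted p = 4.8e-11). Vegfa, an angiogenic factor that PGC-1α and ERRα can induce and that also responds to hypoxia, had the largest rise, from 698 to 2257 (1.69, with an interval of 1.60 to 1.79, limma adjusted p = 5.5e-22). The lists hold genes that other factors control too, and the part of the regulators in these values was not tested.

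**Figure D5:**
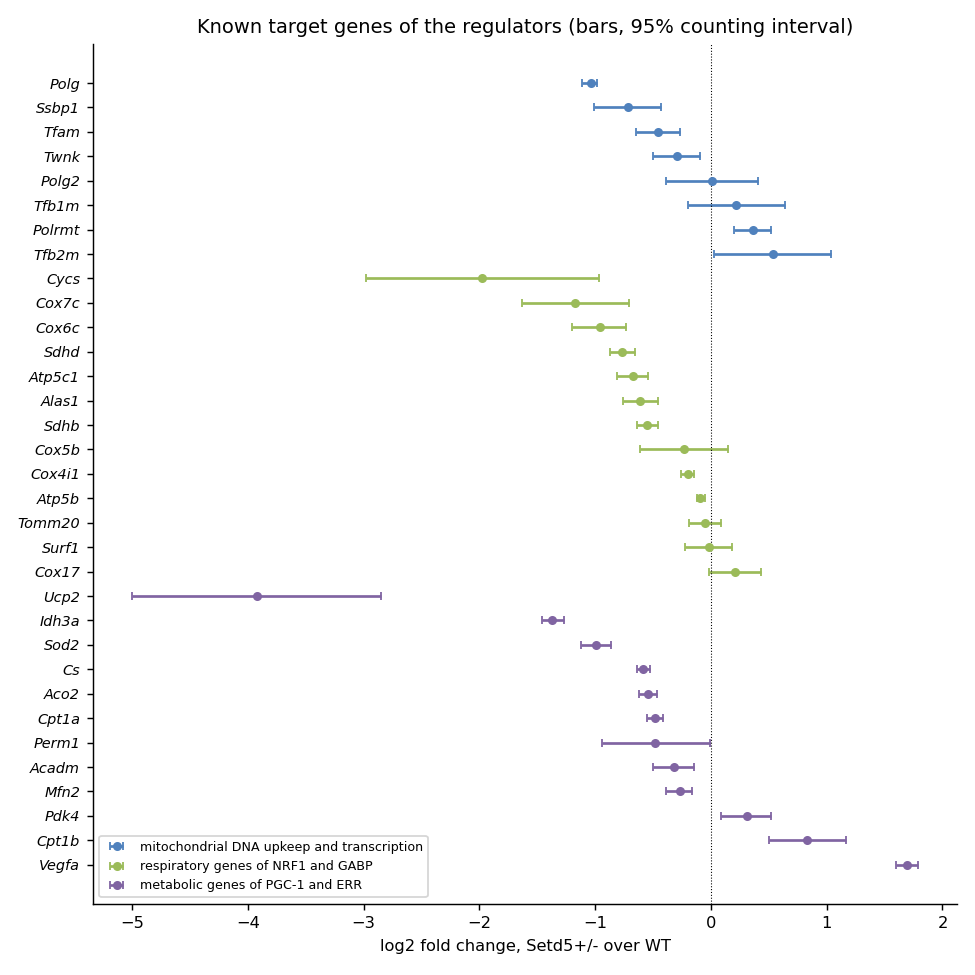
log2 fold change, Setd5+/- over WT, of the 33 tested target genes in 3 lists, with 95% counting intervals. Most points lie to the left of 0, with Ucp2 at -3.92 the furthest, and Vegfa at 1.69 lies furthest to the right.

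The genes of known SIRT3 substrates were also listed. Of 9 tested, 8 were called lower and 1 higher, beside 30.9% and 30.3% of all tested genes. Their median log2 fold change was -0.59, and -0.42 without Acadl, the gene of the list on chromosome 1. SIRT3 acts on the proteins of these genes, and a link between their RNA levels and Sirt3 was not tested. Ppif, the pore regulator cyclophilin D, fell most, from 342 to 141 normalized counts (-1.28, with an interval of -1.52 to -1.04, limma adjusted p = 3.9e-11). Sdha, the flavoprotein of succinate dehydrogenase, rose from 2935 to 3282 (0.16, with an interval of 0.10 to 0.22, limma adjusted p = 3.7e-05). In Ppif 16.1% of the 50-base stretches are shared with the antisense gene Ppifos.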

How the data were processed

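RNA was extracted from adherent NSCs and libraries were prepared with the TruSeq RNA v2 kit. Per the methods and the processing notes, the authors trimmed the reads with Trimmomatic, aligned them to mm10 with Bowtie2 and divided the gene counts by DESeq2 size factors. The program that counted reads is not given in the sources used here. The deposited values are thus normalized counts, and no other unit was used. The columns of the authors' own comparison (log2 fold change, its error, a test statistic and p-values) were not used.

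The decimal points of the 6 columns had been lost and were restored so that each value gave a whole number of reads (within 0.01 read), or, in 1116 genes, with the deposited mean. The procedure was tested on simulated data. Genes with a mean of at least 10 were compared with limma 3.58.1 in R 4.3.3 (trend, log2(normalized count + 1), 2-sided, Benjamini-Hochberg over 16266 genes, threshold 0.05). Fold changes are ratios of means, with 95% intervals whose counting variance was scaled by 1.93, the variance over mean within libraries. These intervals cover counting error only. The size of 1 read was set so that the most frequent low value was 2 reads, which assumes that both ends of a pair were counted. Whether they were is not given in the sources used here. Calls at 1.5-fold use the same ratios.

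Gene positions and exon lengths are from GENCODE vM21 (GRCm38) and promoters from RefSeq (GRCm38.p6). The members and lists were chosen with earlier results of these data known. Named were all 10 members, Setd5, the largest rise and fall of each list and a few genes chosen by role. Same-numbered parts did not deviate together (correlations from -0.0092 to 0.00782 over all pairs of numbers), so the numbers pair nothing. The alternatives were other scalings, filters, pseudocounts and limits, the replicate block, a shorter promoter window and leaving out each part.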

Additional observations from a re-analysis of the deposited data

How the results depend on the processing

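The fall of Ppargc1a, Pprc1, Esrra, Nrf1 and Gabpa kept its direction and its call in all 14 alternatives of the fit, and that of Yy1 in 9 of 14. Under a further limit of at least 1 on the absolute log2 fold change, 2696 genes and 2 members (Pprc1 and Esrra) were called in place of 9963 and 6, since the limit removes the smaller changes. Leaving out each part in turn moved the median of the members between -0.29 and -0.17. With the replicate block 9946 genes and 6 members were called. In the 150 bases before the start, the target lists held 4 windows with the NRF1 letters in place of 7, 1 with those of ERR in place of 4 and 0 with those of YY1 in place of 1, as a shorter window holds fewer matches. The comparison of tested genes with and without the letters was planned but not run, since only 64.1% of them had a window. No list outside the members gained or lost more than 2 calls in either direction under any alternative of the fit. Low counts limit Ppargc1b (80 reads) and Esrrg (148 reads). With 1 library per genotype, no alternative measures how cultures or clones vary.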

Other observations

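The listed subunit genes of succinate dehydrogenase went different ways. The genes of this paragraph outside the naming rule were chosen after their values were seen. Among the subunits of succinate dehydrogenase, the enzyme shared by the Krebs cycle and the respiratory chain, Sdhb went from 1547 to 1056 normalized counts (log2 fold change -0.55, counting interval -0.64 to -0.46) and Sdhd from 1276 to 750 (-0.77, interval -0.87 to -0.66), while Sdha went from 2935 to 3282 (0.16, interval 0.10 to 0.22). Among the subunits of AMPK, Prkab1 was lowest with -0.79 (-0.95 to -0.62), from 555 to 322, and Prkab2 had -0.20 (-0.42 to 0.02). Idh3a, a Krebs cycle gene of the ERR targets, went from 2202 to 853 (-1.37, interval -1.46 to -1.27).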
